A study of Mus musculus with 84 samples.

Results

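The 10 genes described here are the transcriptional regulators Stat3 and Socs3 of the STAT3 pathway, Nfkb1, Nfkb2, Rela, Relb, Nfkbia and Bcl3 of the NF-kappaB family, and Cebpd and Cebpb of the C/EBP family. They were chosen by name, for their place in inflammatory signalling to the nucleus, with earlier results of these data known. All 10 are listed in both deposited count tables, which hold 48526 genes (experimental autoimmune encephalomyelitis, EAE) and 25773 genes (untreated and cultured astrocytes). EAE is a mouse model of multiple sclerosis in which immunization against a myelin peptide leads to ascending paralysis. Adult female C57BL/6J mice received MOG peptide in complete Freund's adjuvant with pertussis toxin and were taken at a clinical score of 1 (limp tail), at a score of 4 (complete paralysis of the hind legs) or in the chronic stage, and the controls were unimmunized. Astrocytes were sorted from hindbrain and spinal cord as viable CD11B-, CD45- and ACSA-2+ cells and split by GLAST, an astrocyte glutamate transporter, into GLASTneg and GLASTpos cells. Control, score 1, score 4 and chronic groups held 5, 5, 6 and 6 libraries of spinal cord GLASTneg cells, 5, 6, 6 and 6 of hindbrain GLASTneg cells, and 5, 6, 6 and 4 of hindbrain GLASTpos cells, which makes 66 in all. A separate experiment held 15 libraries of wildtype FVB/N astrocytes, 3 from each of 5 populations of forebrain, hindbrain and spinal cord, and 3 libraries of astrocytes cultured from neonatal C57BL/6 cerebrum in L929-conditioned medium after the microglia had been shaken off. A library could pool up to 2 mice, and the labels do not say which libraries shared animals, so that p-values measure the spread between libraries. A number in the titles recurs across the populations of a stage and may name a mouse. The main fit treated all libraries as independent, also where populations were compared.

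STAT3 is a transcription factor that cytokines of the IL-6 family activate through the shared receptor chain gp130 and JAK kinases, and in astrocytes it is known as a driver of reactive gliosis. SOCS3 is induced by STAT3 and blocks the receptor, which closes a feedback loop. NF-kappaB is a family of dimers: RelA with p50, the product of Nfkb1, acts in the canonical pathway downstream of TNF, IL-1 and Toll-like receptors, and RelB with p52, the product of Nfkb2, in the noncanonical pathway. IkappaB-alpha, encoded by Nfkbia, holds RelA in the cytoplasm and is itself a rapid NF-kappaB target. Bcl3 is an atypical, nuclear IkappaB that joins p50 or p52 dimers on DNA. C/EBP-beta and C/EBP-delta are leucine zipper factors of the acute-phase response that act together with STAT3 and NF-kappaB on shared promoters. Transcript levels of these genes do not measure the phosphorylation or nuclear entry through which most of the proteins are activated.

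Upstream windows of 250 bases from RefSeq (GRCm38.p6) were found for 7 of the 10 genes, all but Nfkb1, Relb and Cebpd. In these windows 3 short motifs were searched on both strands: TTCNNNGAA for STAT factors, GGG and TCC around 4 bases of any kind for NF-kappaB, and TTGCNNAA for C/EBP factors, which 7.02%, 16.5% and 9.56% of the 32851 RefSeq windows hold. The windows of Socs3 and Nfkbia are printed because these genes are the feedback inhibitors of the STAT3 and NF-kappaB pathways; each is written 5′ to 3′ up to the base before the transcription start, with the motif match in capitals. The Socs3 window, chr11:117969367-117969616 on the minus strand, has a STAT match 154 to 146 bases before the start, and it overlaps the first exon of another, noncoding Socs3 transcript. The Nfkbia window, chr12:55492648-55492897 on the minus strand, has an NF-kappaB match 29 to 20 bases before the start.

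Socs3: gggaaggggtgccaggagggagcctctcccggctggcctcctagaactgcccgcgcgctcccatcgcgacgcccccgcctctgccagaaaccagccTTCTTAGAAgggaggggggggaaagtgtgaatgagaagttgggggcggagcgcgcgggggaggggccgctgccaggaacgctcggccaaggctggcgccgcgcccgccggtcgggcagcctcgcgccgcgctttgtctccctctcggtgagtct

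Nfkbia: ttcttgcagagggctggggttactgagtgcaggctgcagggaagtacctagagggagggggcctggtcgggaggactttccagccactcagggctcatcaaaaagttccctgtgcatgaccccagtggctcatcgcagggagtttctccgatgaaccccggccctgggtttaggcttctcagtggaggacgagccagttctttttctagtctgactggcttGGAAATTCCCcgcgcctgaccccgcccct

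Among the other windows, the first of 3 Nfkb2 starts had 1 STAT match, TTCCCCGAA, and 2 NF-kappaB matches, GGAATTCCCC and GGGGCTTTCC, the last of which lay 11 to 2 bases before the start. The second Nfkb2 start had the NF-kappaB match GGAATGTCCC, and the third had GGGACTTTCC and GGACCCTCCC, which makes 5 for this gene. The Rela and Cebpb windows had 1 NF-kappaB match each. No match to any of the motifs was found in the Stat3 and Bcl3 windows, and none to the C/EBP letters in the windows of all 7 genes. A match describes letters in the window, not binding.

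Library depth was 1313682 to 4895220 counts in the EAE experiment (median 2936680), 416768 to 1269316 in the FVB/N libraries and 2183464 to 8188074 in the cultured ones. A total of 3 counts, the upper limit that a count of 0 allows, corresponded to 0.634 to 2.44 counts per 1000000 (CPM, scaled by TMM) in the EAE libraries and 2.45 to 7.05 CPM in the FVB/N libraries, for counting error only. Marker sums of the spinal cord groups differed between stages. The summed level of 10 astrocyte markers was 14341 to 21523 CPM in spinal cord controls, 4243 to 24817 at score 1, 750 to 2451 at score 4 and 830 to 1801 in the chronic stage, and the median sum of 10 oligodendrocyte markers was 18344, 41560, 53775 and 31016 CPM. That of 4 oligodendrocyte precursor markers was 272, 362, 499 and 1323 CPM, with 526.1 to 1927 CPM in the chronic stage. Slc1a2, which encodes the main astrocyte glutamate transporter, went from a mean of 3760 ± 665 CPM in the controls to 336 ± 182 at score 4 and 282 ± 95.4 in the chronic stage (SD, n = 5, 6 and 6). Hindbrain libraries kept astrocyte marker sums of 19945 to 38888 CPM at all stages. Within GLASTpos cells the median was 30450 CPM in controls and 23375 CPM in the chronic stage. The sum of 14 myeloid markers was 14.4 to 43.1 CPM in spinal cord controls and 57.3 to 183 CPM in the chronic stage, and at score 4 it was 4883 CPM in replicate 2 against a median of 163 CPM. The sum of 21 immediate early and dissociation genes was 336 to 512 CPM in spinal cord controls and 599 to 3435 CPM at score 4. The part of these marker differences in the spinal cord results was not tested, and in bulk libraries fewer cells of a type and less RNA per cell cannot be told apart. Replicate 1 of spinal cord score 1 carries a hindbrain label beside a spinal cord title, and its Hox gene sum lay with the other spinal cord libraries.

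**Figure D1:**
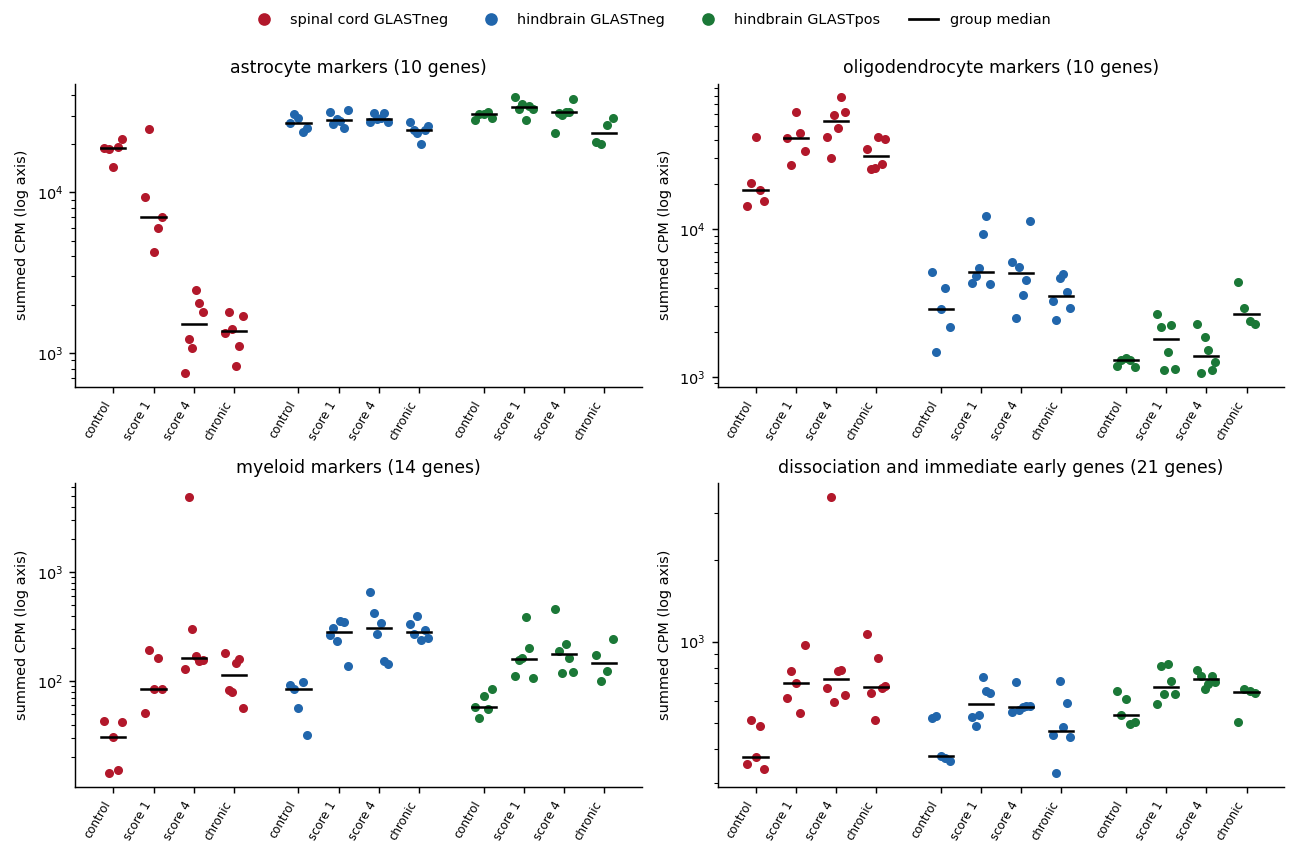
Summed CPM (log axis) of astrocyte, oligodendrocyte, myeloid and immediate early marker lists in each EAE library (points) by group, with medians as bars. Astrocyte sums were 750 to 2451 CPM in spinal cord score 4 libraries against 14341 to 21523 CPM in their controls, while hindbrain sums stayed at 19945 to 38888 CPM.

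In spinal cord GLASTneg cells, Stat3, Socs3, Bcl3, Cebpd and Rela were higher than in controls at all 3 stages of EAE, and Nfkb1 was lower. Cebpb rose at score 4, while Nfkbia, Nfkb2 and Relb did not pass the test at any stage. In counts, 5 rose and 1 fell at score 1, 6 rose and 1 fell at score 4, and 5 rose and 1 fell in the chronic stage, where 10.4%, 23.1% and 21.3% of all 23324 genes tested passed in either direction. Differences are log2 fold changes ± SE from edgeR's quasi-likelihood test with Benjamini-Hochberg adjustment over all genes, and a gene passed at an adjusted p under 0.05. The median log2 fold change of the 10 genes was 1.61, 1.75 and 1.12 at the 3 stages, and that of all genes was 0 at each, with the same values when Cebpb was set to its lower bound.

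Stat3 (chr11:100885098-100939540, minus strand, GRCm38) was at 166, 165, 137, 138 and 121 CPM in the spinal cord controls. At score 1 the 5 libraries held 717, 398, 631, 546 and 746 CPM, and the lowest, median and highest were 411, 516 and 689 CPM at score 4 and 241, 388 and 660 CPM in the chronic stage. No spinal cord EAE library overlapped the controls. Here and below, the share of all genes without such overlap was not counted, so that a lack of overlap is a description only. The differences were 2.07 ± 0.23 (adjusted p = 7.86e-10) at score 1, 1.84 ± 0.23 (4.75e-10) at score 4 and 1.61 ± 0.23 (2.71e-08) in the chronic stage. The final 500 exonic bases of Stat3, where reads of a 3′ library fall, overlap Stat5a on the opposite strand over 14.4% of their length, and reads there could not be assigned without strand, whose use in counting is not given in the sources used here.

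Socs3 (chr11:117966079-117970047, minus strand), the feedback inhibitor, was close to absent in spinal cord controls, at 0, 0, 0.573, 0.942 and 0.936 CPM. It was at 35.8, 68.4, 56.9, 17.8 and 149 CPM at score 1, at 9.34, 26.9 and 48.9 CPM (lowest, median, highest) at score 4 and at 2.75, 28.9 and 114 CPM in the chronic stage. Every spinal cord EAE library was above every control. The rises were 6.92 ± 0.90 (1.12e-08), 5.69 ± 0.99 (1.73e-06) and 6.26 ± 0.93 (3.88e-08) on the log2 scale, with controls near the detection limit.

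Bcl3 (chr7:19808462-19822770, minus strand), the nuclear IkappaB, had 0, 0, 2.01, 0.628 and 0 CPM in the controls. It reached 31.1, 60.2, 94, 36.7 and 68.9 CPM at score 1, then 72.8, 118 and 169 CPM (lowest, median, highest) at score 4 and 3.17, 34.1 and 127 CPM in the chronic stage. No EAE library of the spinal cord overlapped the controls. The rises were 6.39 ± 0.83 (8.36e-09), 7.42 ± 0.77 (8.83e-14) and 6.12 ± 0.84 (2.45e-09).

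Rela (chr19:5637483-5648130, plus strand), which encodes the activating canonical subunit, changed less. Its controls held 59, 51.5, 62.5, 53.7 and 63.6 CPM, the score 1 libraries 148, 122, 136, 135 and 103 CPM, and the later stages 113, 122 and 166 CPM and 72.5, 75 and 124 CPM (lowest, median, highest). These values did not overlap the controls either. Rela rose by 1.15 ± 0.20 (1.62e-05) at score 1, 1.16 ± 0.19 (1.11e-06) at score 4 and 0.53 ± 0.19 (0.0351) in the chronic stage. The chronic call was lost without control replicates 1, 2, 3 or 4 or chronic replicates 2 or 4, with adjusted p of 0.0529 to 0.143. It was also lost with a term for the column numbers described with the stage comparisons (0.45, 0.109). Further alternatives that lost this call were limma-voom with a random block on the title number (0.0515), a replicate block (0.0687) and no count filter (0.196). It did not pass a log2 fold threshold of 1 either, and was kept in 5 of 10 alternatives.

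Nfkb1 (chr3:135584655-135691547, minus strand), which encodes the p50 precursor, moved the other way. Its controls were spread at 86.3, 22.6, 31.5, 82 and 39.8 CPM, against 44.6, 21.4, 12.2, 10.3 and 25 CPM at score 1, 9.33, 14.6 and 47.6 CPM (lowest, median, highest) at score 4 and 7.40, 12.9 and 18.6 CPM in the chronic stage. Only the chronic libraries lay wholly below the controls. Nfkb1 fell by 1.14 ± 0.38 (0.0366), 1.29 ± 0.37 (0.00522) and 1.99 ± 0.38 (2.41e-05) on the log2 scale. The score 1 call was lost when control replicate 1 or 4 or score 1 replicate 2, 3, 4 or 5 was left out (adjusted p of 0.0509 to 0.168). The score 4 call was lost with the term for the column numbers (-1.30, 0.0858). With limma-voom and a random block on the title number the score 1 call was lost as well (0.103).

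Nfkbia (chr12:55489410-55492647, minus strand), the canonical inhibitor, did not pass at any stage in the spinal cord. The controls held 406, 389, 341, 419 and 461 CPM and score 1 libraries 390, 880, 649, 782 and 386 CPM. At score 4 the lowest and median were 258 and 352 CPM and the highest, replicate 2, was 1662 CPM. That library also had the highest sums of myeloid (4883 CPM), neutrophil (547 CPM) and immediate early genes (3435 CPM), and its part in the Nfkbia level was not tested beyond leaving it out. The differences were 0.61 ± 0.32 (0.243), 0.50 ± 0.31 (0.279) and -0.75 ± 0.31 (0.0721).

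The noncanonical subunits were low, and Nfkb2 was near the detection limit. Nfkb2 (chr19:46304320-46312385, plus strand) ranged from 0 to 2.29 CPM in spinal cord controls, 0 to 2.81 CPM at score 1, 0.227 to 10.8 CPM at score 4 and 0 to 4.54 CPM in the chronic stage, and its largest difference was 1.65 ± 0.92 (0.198) at score 4. The Nfkb2 count is uncertain, since 59.8% of its final 500 exonic bases overlap Psd on the opposite strand. Relb (chr7:19606217-19629438, minus strand) ranged from 2.81 to 13.4 CPM in controls and from 0 to 21.1 CPM over the EAE libraries of the spinal cord. At these depths a change of either gene was not detected.

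Cebpd (chr16:15887286-15891031, plus strand), an acute-phase activator, was at 15.4, 9.18, 11.2, 7.22 and 5.15 CPM in the spinal cord controls and at 86.9, 171, 160, 78.8 and 170 CPM at score 1. Later groups held 38.5, 60.1 and 90.1 CPM at score 4 and 8.03, 48.5 and 246 CPM (lowest, median, highest) in the chronic stage. Score 1 and score 4 libraries lay above all controls, while in the chronic stage 5 of 6 did. Cebpd rose by 3.79 ± 0.52 (1.63e-07), 2.73 ± 0.52 (2.41e-05) and 3.02 ± 0.52 (2.92e-06).

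Cebpb (chr2:167688915-167690418, plus strand) had no count in any spinal cord control. It was at 0.498, 6.38, 3.95, 1.71 and 0.843 CPM at score 1 and at 0.389, 4.86 and 17.1 CPM (lowest, median, highest) at score 4, with the highest value in replicate 2, and at 0, 1.31 and 5.00 CPM in the chronic stage. Set against 3 counts over the control group (0.216 CPM), the group means were at least 12.4-fold, 30.8-fold and 7.49-fold higher. The adjusted p was 0.0520 at score 1, 9.24e-05 at score 4 and 0.0995 in the chronic stage, so that Cebpb passed at score 4 alone in this fit. Of 10 alternatives 4 called it at score 1 (0.00265 to 0.0358) and 3 in the chronic stage (0.00566 to 0.0222), DESeq2, limma-voom and edgeR's earlier estimate among them at both stages. Exons of Cebpb overlap Tmem189 on the opposite strand, though none of the final 500 bases.

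One score 1 library of the spinal cord stood apart by its astrocyte marker sum. As a single library it describes itself alone, and the part of astrocyte content in the rises was not tested. Score 1 replicate 2 of the spinal cord had the highest astrocyte marker sum of the cord libraries, 24817 CPM, and held 398 CPM of Stat3, 68.4 of Socs3, 60.2 of Bcl3 and 171 of Cebpd, each above every spinal cord control.

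**Figure D2:**
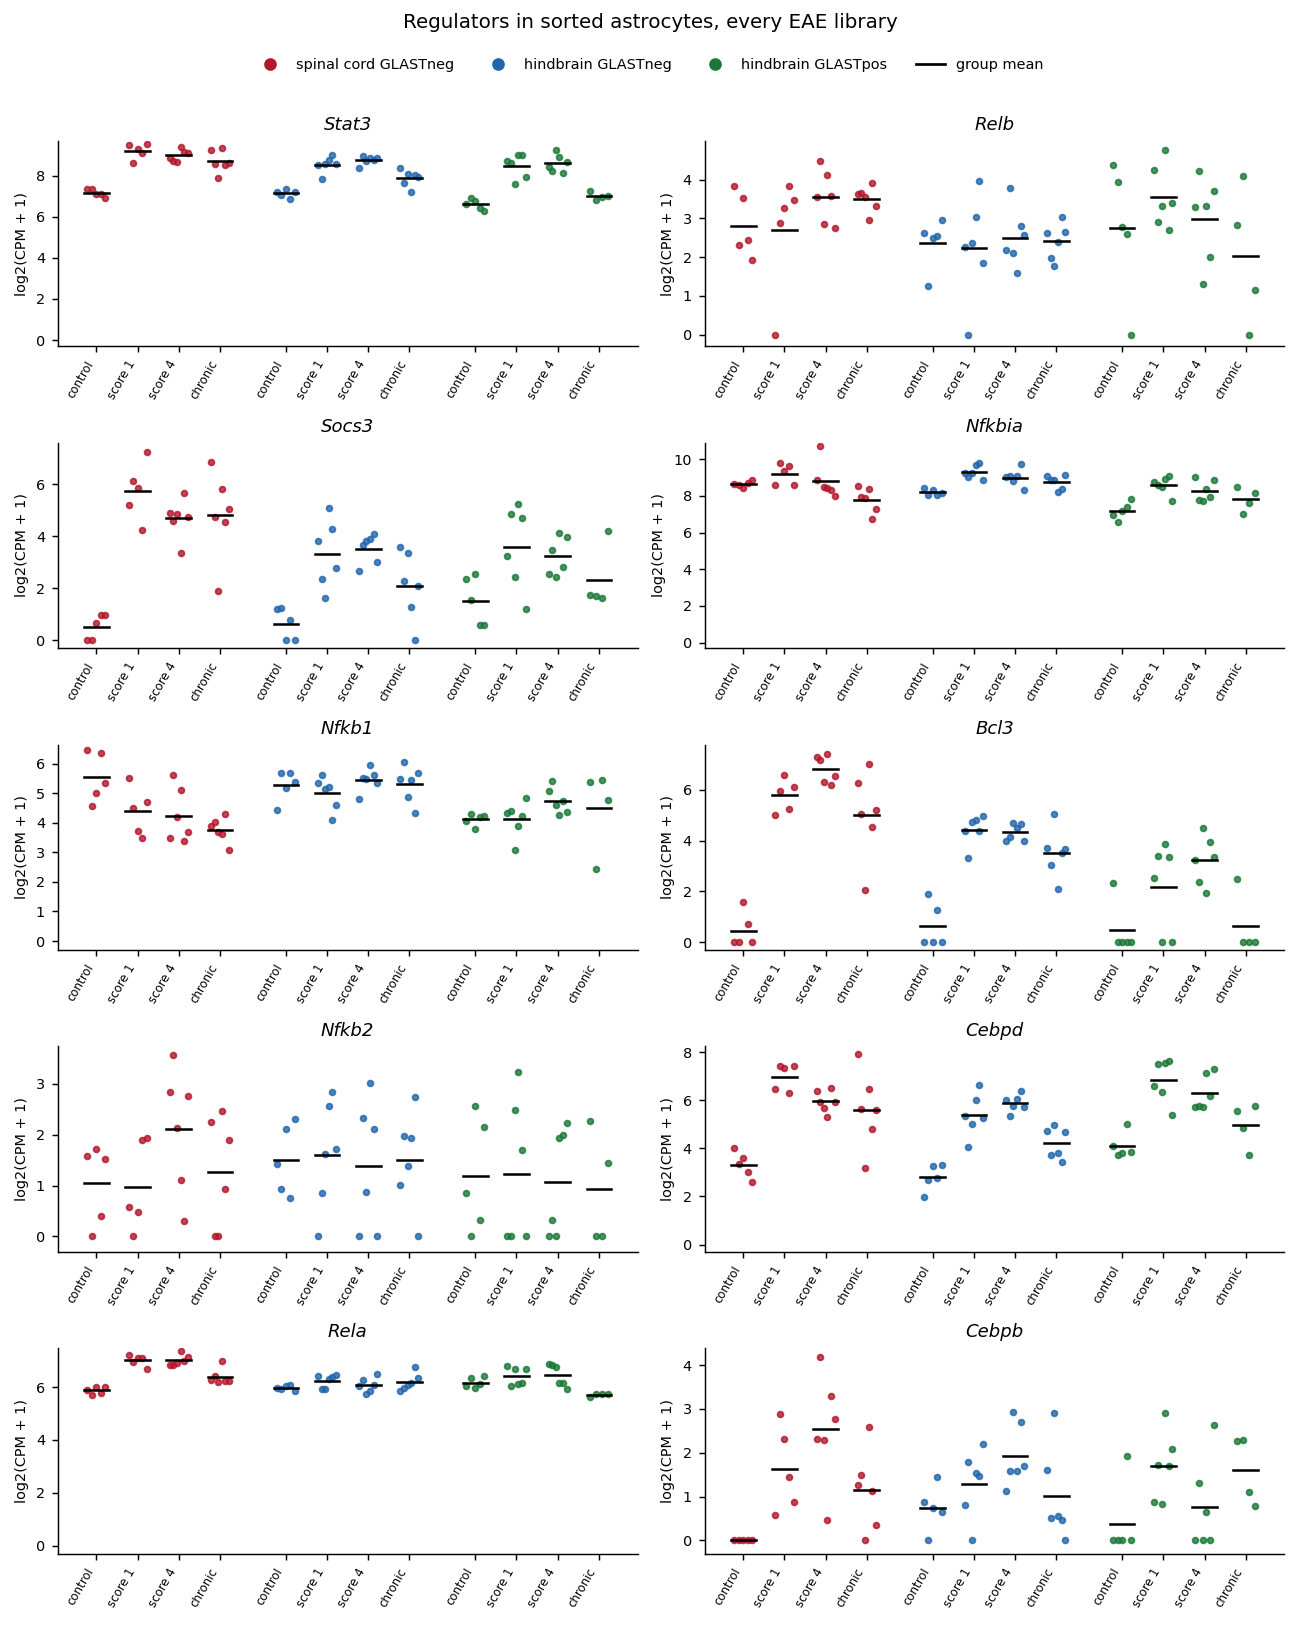
Level of each of the 10 genes, as log2(CPM + 1), in each EAE library (points) by population and stage, with group means as lines. Stat3, Socs3, Bcl3, Rela, Cebpd and Cebpb sit above the controls in all spinal cord libraries of score 1 and score 4. Nfkbia has 1 spinal cord score 4 library far above the rest, at 1662 CPM.

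In hindbrain GLASTneg cells, Stat3, Bcl3 and Cebpd rose at score 1 and score 4, Socs3 rose at score 1, and no gene of the 10 fell. This is 4 of 10 at score 1 and 3 of 10 at score 4, where 0.72% and 0.746% of all genes passed. None of the 10 passed in the chronic stage, where 0.0686% of genes did; 3 of them, Bcl3, Cebpd and Stat3, had an unadjusted p under 0.05 in edgeR there, and DESeq2 called 1, limma-voom 0 and edgeR with its earlier dispersion estimate 0.

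Stat3 held 149, 133, 166, 117 and 149 CPM in hindbrain GLASTneg controls. Its lowest, median and highest values were 228, 379 and 519 CPM at score 1, 334, 448 and 492.6 CPM at score 4 and 148, 253 and 328 CPM in the chronic stage. Score 1 and score 4 libraries did not overlap the controls. The rises were 1.45 ± 0.23 (1.69e-05) and 1.62 ± 0.23 (6.41e-07), and the chronic difference was 0.78 with an adjusted p of 0.364. Socs3 went from 1.27, 1.38, 0, 0.693 and 0 CPM to 2.06, 9.51 and 33.3 CPM at score 1 and 5.29, 12.4 and 15.9 CPM at score 4. Its difference passed at score 1 (4.14 ± 1.12, 0.0468) but not at score 4 (3.88 ± 1.16, 0.103), although no library of either stage overlapped the controls, and 4 of 10 alternatives called it at score 4 (0.000142 to 0.0114). The score 1 call was lost in 8 of 11 fits that left out a library (any of the 5 controls or score 1 replicates 1, 4 or 5), with adjusted p of 0.0629 to 0.263.

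Bcl3 was at 0, 2.76, 0, 1.39 and 0 CPM in these controls, at 8.95, 22.6 and 30.0 CPM at score 1, at 14.7, 19.2 and 25.1 CPM at score 4 and at 3.29, 11.1 and 31.9 CPM in the chronic stage. All 18 EAE libraries were above the controls. The difference was 4.54 ± 0.94 (0.00155) at score 1, 4.35 ± 0.96 (0.00328) at score 4 and 3.73 (0.235) in the chronic stage. Cebpd, with 2.97, 5.52, 8.66, 5.89 and 8.99 CPM in controls, did not overlap them at any stage: it was at 15.5 to 98.8, 40.0 to 81.7 and 9.87 to 30.7 CPM. It rose by 3.02 ± 0.60 (0.00148) and 3.26 ± 0.60 (0.00021), and the chronic difference was 1.67 with an adjusted p of 1. Nfkbia was 264 to 343 CPM in controls and 471 to 887 CPM at score 1, with no overlap, yet its difference of 1.13 ± 0.31 had an adjusted p of 0.0722; 4 of 10 alternatives called it (2.34e-05 to 0.0397). With limma-voom the calls of Cebpd were lost, at adjusted p of 0.390 and 0.194, and that of Socs3 at 0.234.

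In hindbrain GLASTpos cells, Stat3, Cebpd and Nfkbia rose at score 1 and score 4, Socs3 rose at score 1 and Bcl3 at score 4. These are 4 of 10 genes at each of the first stages, against 1.74% and 2.9% of all genes, and 0 of 10 in the chronic stage, against 2.68%. In that stage Rela alone had an unadjusted p under 0.05 in edgeR, and DESeq2, limma-voom and edgeR with the earlier dispersion estimate called 0.

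Stat3 was at 98.9, 121, 107, 86.6 and 77.3 CPM in GLASTpos controls, at 192, 408 and 515 CPM at score 1, at 284, 380 and 623 CPM at score 4 and at 154, 112, 124 and 130 CPM in the chronic stage. The score 1 and score 4 libraries were all above the controls, and the chronic ones overlapped them. The differences were 1.95 ± 0.23 (1.43e-08), 2.06 ± 0.23 (1.13e-09) and 0.41 (0.462). Cebpd went from 15.9, 12.1, 13.1, 31.2 and 13.5 CPM to 41.4, 139 and 200 CPM at score 1 and 51.1, 62.5 and 155 CPM at score 4, with no overlap, and was at 46.7, 27.9, 12.4 and 53.5 CPM in the chronic stage. Its rises were 2.89 ± 0.46 (1.56e-05) and 2.31 ± 0.46 (0.000592), and the chronic difference was 0.98 (0.363).

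Nfkbia, the inhibitor that did not pass in the other populations, was at 124, 93.6, 147, 171 and 229 CPM in GLASTpos controls, at 210, 410 and 536 CPM at score 1 and at 210, 286 and 524 CPM at score 4. Some libraries of both stages reached down into the control range. It rose by 1.38 ± 0.32 (0.00754) and 1.11 ± 0.32 (0.0333), and the score 4 call was lost in 6 of 11 fits that left out a library, with adjusted p of 0.0572 to 0.163. Socs3 was at 4.09, 1.90, 4.90, 0.508 and 0.491 CPM in controls and at 1.30, 16.6 and 36.3 CPM at score 1. It rose by 2.93 ± 0.76 (0.0197) there and differed by 2.14 ± 0.82 (0.165) at score 4; the score 1 call was lost without control replicates 4 or 5 or score 1 replicates 2 or 4. Bcl3 had 4.09 CPM in 1 control and 0 in the other 4, and was at 0, 7.05 and 13.4 CPM at score 1 and 2.80, 8.82 and 21.3 CPM at score 4. Its difference was 3.15 ± 1.13 (0.149) at score 1 and 3.84 ± 1.03 (0.0144) at score 4, a call lost without control replicate 4 or 5 (0.0587 and 0.0641). A fit of that population alone lost the score 4 call as well (0.0682). With limma-voom Socs3 was lost at score 1 (0.427), as was Nfkbia at score 1 and score 4 (0.0778 and 0.183).

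T cell markers moved with EAE in the GLASTpos cells as well. The sum of 9 of them was 0 to 8.16 CPM in controls and reached 509 CPM at score 1 and 821 CPM at score 4 in the highest library, while Cd3e, a defining marker, was at 0 in all 5 controls. In hindbrain GLASTneg cells the myeloid sum was 32 to 98.7 CPM in controls and 139 to 359 CPM at score 1. Immediate early gene sums were 360 to 529 and 486 to 736 CPM in the same groups. Their part in the rises of Stat3, Socs3, Bcl3, Cebpd and Nfkbia in the hindbrain was not tested.

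**Figure D3:**
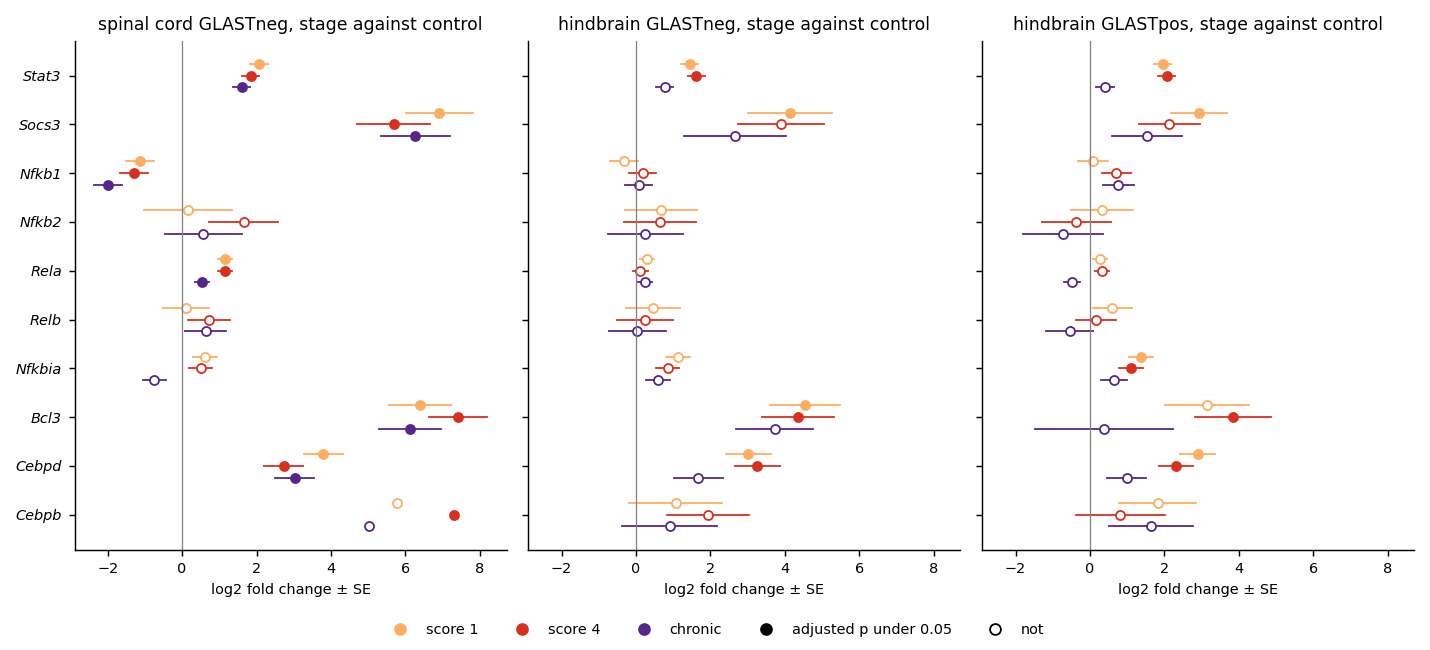
Log2 fold change from control ± SE of the 10 genes at score 1, score 4 and the chronic stage in the 3 populations, with filled points for an adjusted p under 0.05 in edgeR; Cebpb in the spinal cord has no error bar because all its controls were 0. In the chronic stage 6 spinal cord points are filled and none of the hindbrain ones.

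Stages were also compared directly. Between score 1 and score 4 in the spinal cord, none of the 10 genes passed, against 6.15% of all genes; Socs3, Bcl3, Cebpd and Cebpb had an unadjusted p under 0.05 in edgeR, and DESeq2, limma-voom and the earlier edgeR estimate each called 0. From score 4 to the chronic stage 4 of the 10 fell in the spinal cord. Of all 23324 genes 7.36% passed in either direction there, and 749 of these genes fell. DESeq2, limma-voom and the earlier edgeR estimate each called 2 of the 10. Nfkbia fell by 1.25 ± 0.30 (0.0031), Bcl3 by 1.30 ± 0.38 (0.0201), Cebpb by 2.28 ± 0.69 (0.0206) and Rela by 0.63 ± 0.17 (0.0129). The Nfkbia difference was -0.57 (0.228) without score 4 replicate 2, the library with 1662 CPM. The Bcl3 call was lost without score 4 replicate 4 or chronic replicates 2, 3 or 5 (0.0532 to 0.0729), and the Cebpb call without score 4 replicates 2 or 5 or chronic replicates 3 or 6 (0.0551 to 0.117). Column names carry a number whose meaning is not stated. In the spinal cord it was above 56 in all 5 controls, 4 of 5 score 1 libraries, 1 of 6 score 4 libraries and 4 of 6 chronic ones. This split was thus partly aligned with stage, most of all for score 4 against control. With a term for the split, 0 of the 10 genes passed between score 4 and the chronic stage.

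In hindbrain GLASTpos cells 3 of the 10 genes fell from score 4 to the chronic stage. Of all 23324 genes 6.66% passed in either direction there, and 575 of these genes fell. DESeq2, limma-voom and the earlier edgeR estimate each called 3 of the 10. Stat3 fell by 1.65 ± 0.24 (1.01e-06), Rela by 0.80 ± 0.20 (0.00549) and Bcl3 by 3.45 ± 1.01 (0.0181). Rela, at 48.2, 52.7, 52.3 and 52.0 CPM in the chronic libraries, lay below all 5 controls (61 to 83.7 CPM). Its difference from the controls, -0.47 ± 0.21, did not pass in edgeR (adjusted p = 0.248). The Bcl3 call was lost without score 4 replicate 3 or chronic replicates 2, 3 or 4 (0.0552 to 0.0805), and in a fit of that population alone (0.0576). Without a count filter the Rela call was lost (0.0566). Marker sums of GLASTpos cells differed between these stages as well. Medians at score 4 and in the chronic stage were 31376 and 23375 CPM for astrocyte and 1379 and 2642 for oligodendrocyte genes. Those of oligodendrocyte precursor genes were 8.23 and 72.1 CPM, of neuron genes 78.9 and 291 and of myeloid genes 176 and 148. The part of these differences in the falls was not tested. In hindbrain GLASTneg cells 0 of the 10 passed, against 0.189%; Stat3 differed by -0.84 ± 0.21 (0.0627), 2 genes had an unadjusted p under 0.05 in edgeR, and DESeq2 called 1, limma-voom 0 and the earlier edgeR estimate 0.

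Differences between populations in the EAE response were tested as interactions. Spinal cord and hindbrain GLASTneg cells were not shown to differ for any of the 10 genes at score 1 (0.476% of all genes passed; 1, Rela, at an unadjusted p under 0.05 in edgeR; 0 in DESeq2, limma-voom and the earlier edgeR estimate). At score 4 the rise of Rela was larger in the spinal cord by 1.04 ± 0.27 (0.00593), 1 of 10 against 8.38% of genes. This call was lost with the column number term, under which 0 passed, and without a count filter (0.0667). In the chronic stage 2 of 10 differed, against 7.74%: the response of Nfkb1 was lower in the spinal cord (-2.06 ± 0.52, 0.0046), as was that of Nfkbia (-1.34 ± 0.44, 0.0414), and the Nfkbia call was lost in 11 of 22 fits that left out a library. The response of hindbrain GLASTpos and GLASTneg cells was not shown to differ for any of the 10 genes at score 1, score 4 or the chronic stage, where 0.0171%, 0% and 0.0429% of all genes passed; edgeR gave 0, 0 and 1 (Rela) at an unadjusted p under 0.05, and the other tools 0.

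Among unimmunized mice, Nfkb1 and Nfkbia were lower in hindbrain GLASTpos than in hindbrain GLASTneg cells, and higher in spinal cord GLASTneg than in hindbrain GLASTpos cells. Nfkb1 held 15.5, 18.6, 12.7, 17.5 and 17.9 CPM in GLASTpos controls and 20.4, 50.1, 35.3, 50.9 and 41 CPM in hindbrain GLASTneg controls, with no overlap, a difference of -1.27 ± 0.41 (0.0226). Nfkbia, at 93.6 to 229 CPM and 264 to 343 CPM, did not overlap either and differed by -0.95 ± 0.33 (0.0386). These 2 of 10 stand against 14.8% of all genes, whose median difference was -0.11. All hindbrain GLASTneg column numbers are 56 or lower and all GLASTpos ones 61 or higher, so that this split and the population cannot be told apart. With the term for the column numbers 0 passed. The Nfkbia call was lost in 8 of 10 fits that left out a library (0.0520 to 0.119) and the Nfkb1 call without GLASTneg replicates 2 or 4 or GLASTpos replicate 3, and with limma-voom and a random block on the title number both were lost (0.0565 for Nfkb1 and 0.124 for Nfkbia). Against hindbrain GLASTpos cells, the spinal cord controls were higher by 1.65 ± 0.39 (0.000869) for Nfkb1 and 1.39 ± 0.33 (0.000826) for Nfkbia, 2 of 10 against 19.2% of genes. Spinal cord and hindbrain GLASTneg controls differed for 0 of the 10, against 6.64%, with 0 at an unadjusted p under 0.05 in edgeR and 0 in the other tools.

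Set in order of mean level over the 12 EAE groups, Stat3 was highest in spinal cord at score 1 (608 ± 141 CPM, SD, n = 5), score 4 (521 ± 108, n = 6) and the chronic stage (443 ± 159, n = 6). Hindbrain GLASTneg at score 4 (436 ± 55.5, n = 6) and GLASTpos at score 4 (408 ± 128, n = 6) came next, and GLASTpos controls were lowest (98.1 ± 17.1, n = 5). Socs3 had the same leading group, at 65.6 ± 50.6 CPM, followed by the chronic (42 ± 39.2) and score 4 (27.3 ± 12.8) spinal cord groups, and was lowest in spinal cord controls (0.490 ± 0.472). Bcl3 was highest in spinal cord at score 4 (119 ± 42.5 CPM) and Cebpd in spinal cord (133 ± 46.4) and hindbrain GLASTpos cells (131 ± 66.2) at score 1. Nfkbia was highest in hindbrain GLASTneg cells at score 1 (647 ± 166 CPM) and Nfkb1 in spinal cord controls (52.4 ± 29.6). No neighbouring pair in any of these orders was apart: the libraries of 0 of 11 neighbouring pairs were free of overlap for each of the 10 genes.

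The genes whose 12 group means followed each regulator most closely, by Pearson's r on log2(CPM + 1) among genes averaging 5 CPM or more, are given as a description, since the groups share libraries, depth and cell content. For Stat3 they were Gbp7 (0.968), Irgm1 (0.968) and Irf1 (0.966), which interferons induce. For Bcl3 they were Ifit2 (0.973), Ifi27l2a (0.968) and Trim25 (0.964), for Socs3 Ifit2 (0.939), Ptpn1 (0.935) and Psmb8 (0.933), and for Cebpd Irgm2 (0.948), Fcgr2b (0.941) and Nmi (0.937). Nfkb1 stood with Acacb (0.960) and Rela with Arid5b (0.936), while Nfkbia (Tmem208, 0.916), Cebpb (Slmap, 0.911), Nfkb2 (Sgsh, 0.925) and Relb (Snapin, 0.904) had other leading genes.

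The pathways around the 10 genes were read from fixed lists. At score 4 in the spinal cord, where 23.1% of all genes passed, 8 of 15 further STAT3 targets rose and none fell, with a median log2 fold change of 2.06 (1.37 with genes at 0 in all controls set to their lower bound), and 10 of 16 tested NF-kappaB targets rose and 1 fell, with a median of 3.80 (3.39 with such genes at their bound), against 0 over all genes. The STAT3 list holds Gfap, which is also an astrocyte marker, and Junb, which is also an immediate early gene. Among STAT3 targets Serpina3n, an acute-phase protease inhibitor of reactive astrocytes, rose by 6.45 ± 0.53, and Junb, a subunit of AP-1, by 4.29. Lcn2, an iron-carrier binding protein, had no count in the 5 controls and was at least 31.8-fold higher. Among NF-kappaB targets the immunoproteasome subunit Psmb9 rose by 5.62 and the interferon factor Irf1 by 4.93, both of which interferons induce as well. Ccl5, a chemokine for T cells, rose by 5.68 ± 1.53, a call lost without score 4 replicate 2 (4.34, 0.0527). Vcam1, an adhesion molecule, fell by 3.89 ± 0.32 in the spinal cord and differed by -0.07 and -0.27 in hindbrain GLASTneg and GLASTpos cells, where it did not pass.

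In a list of 10 receptors and kinases upstream of Stat3, 1 rose and 4 fell in the spinal cord at score 4. Over all genes 23.1% passed there, and the short lists were not tested against that share. Egfr, the EGF receptor gene, is in the list but not of the IL-6 family, to which most others belong. Il6st, which encodes gp130, rose by 0.64 ± 0.22 (0.024), a call lost in 3 of 11 fits that left out a library, and Egfr, Cntfr and Il11ra1 fell by 4.11 ± 0.42, 3.42 ± 0.29 and 1.97 ± 0.30. Jak1, a kinase bound to gp130, was the remaining one that fell (-0.77 ± 0.17). In the STAT family Stat2, which acts downstream of interferons, rose by 2.83, and Stat5a and Stat5b fell by 2.45 ± 0.48 and 1.35 ± 0.37. Among 12 genes of STAT feedback other than Socs3, 3 rose, Ptpn11 (1.72 ± 0.23), Socs6 (0.98) and the phosphatase Ptpn6 (3.68 ± 1.15), and 1, Socs7, fell (-1.50). The astrocyte marker sum fell in the same libraries, and its part in these falls was not tested.

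In the same comparison, where 23.1% of all genes passed, 2 of the other 6 NF-kappaB subunits and inhibitors rose and none fell. They were the inhibitors Nfkbib (1.09) and Nfkbid (adjusted p = 0.00589, at 0 in all 5 controls). The counts of this and the following short lists were not tested against that share. In the list of 23 kinases and adaptors 4 rose and 3 fell: Irak4 (1.64) and Map3k7 (0.75), which carry Toll-like and IL-1 receptor signals, rose, and Chuk (-1.52), Irak1 (-0.67) and Tlr3 (-1.97) fell. Traf1, an adaptor of TNF receptors that was at 0 in all 5 controls, passed with an adjusted p of 0.037, but its difference was 3.80 (0.379) without score 4 replicate 2, and 6 of 11 such fits lost it. Il1r1, the IL-1 receptor, was also at 0 in all controls and passed narrowly (adjusted p = 0.0498). Of 8 brakes on NF-kappaB 3 rose, Tnip1 (1.22), N4bp1 (0.79, lost in 4 of 11 such fits) and Tnfaip3 (adjusted p = 0.00235, at 0 in all controls). Ptpn6, Jak1, Nfkbid, Il1r1 and Tnfaip3 are named after their values were seen, to complete the counts. These genes were not rerun under the alternatives or with a library left out, so that how firm their calls are is not known. Of 3 tested C/EBP relatives 1 rose, Cebpg, by 0.81, lost in 5 of 11 fits that left out a library. Immediate early and dissociation genes rose in 10 of 20 cases, and none fell. With the term for column numbers above 56 the calls of Il6st, Stat5b, Socs6, Nfkbib, Irak1, Map3k7, Traf1, Tnip1, N4bp1 and Cebpg were lost, all in the same direction as before. Numbers above 56 were held by all 5 controls and by 1 of 6 score 4 libraries.

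In the hindbrain at score 4 the same target lists moved with far fewer genes around them. Of the STAT3 targets 6 of 15 rose in GLASTneg and 6 of 15 in GLASTpos cells, and of the NF-kappaB targets 8 of 16 in each, where 0.746% and 2.9% of all genes passed; none fell. Stat2 rose by 3.22 and 2.995, Serpina3n by 4.91 and 3.50, Junb by 3.27 and 2.74, Irf1 by 3.76 and 4.35 and Psmb9 by 5.87 and 7.32. Lcn2, at 0 in all hindbrain controls, was at least 119-fold higher in GLASTneg cells, and in GLASTpos cells its adjusted p was 0.404. Stat3, Cebpd and Bcl3 rose at the same stage in both hindbrain populations.

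**Figure D4:**
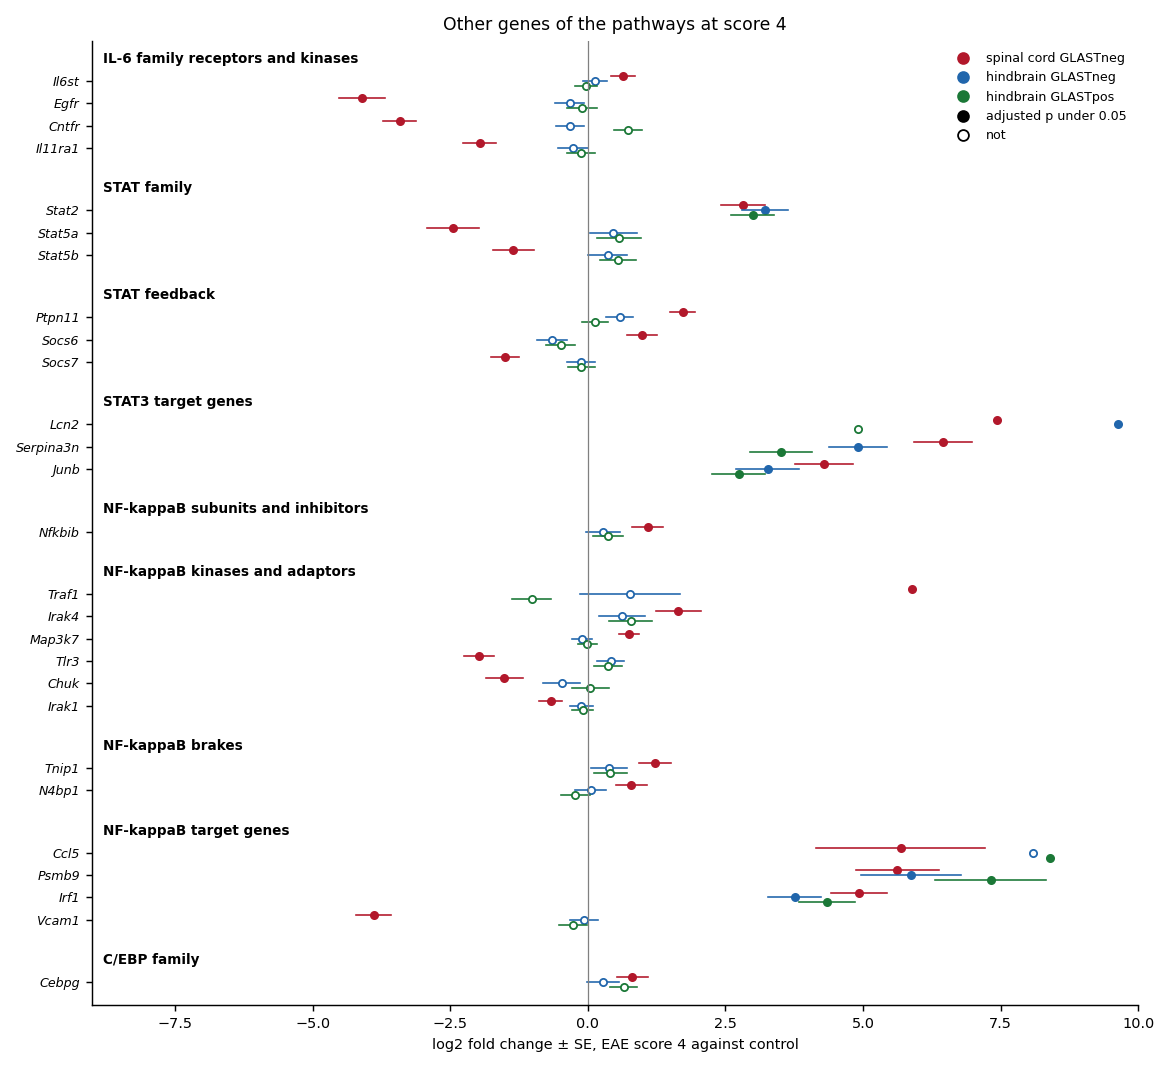
Log2 fold change from control at score 4, with SE where it could be estimated, of the named pathway genes in spinal cord GLASTneg, hindbrain GLASTneg and hindbrain GLASTpos cells; filled points have an adjusted p under 0.05 in edgeR. Stat2, Irf1 and Psmb9 are filled in all 3 populations, while Vcam1 and Cntfr fall in the spinal cord.

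Baseline levels in untreated FVB/N mice came with conflicting group names. Of these 15 libraries 12 stand in a supplementary table of the study under other population names, by whole groups, and the labelled hindbrain GLASTneg libraries had 118 to 176 CPM of Hoxc8, a gene of trunk segments, while the labelled spinal cord GLASTneg libraries had 0. The populations are therefore given as "labelled". In that table the labelled hindbrain GLASTneg libraries are named spinal cord GLASTneg, and the labelled spinal cord GLASTneg ones hindbrain GLASTpos. The labelled hindbrain GLASTpos libraries are named forebrain GLASTpos there, and the labelled forebrain GLASTpos ones hindbrain GLASTneg. Stat3 was at 133, 185 and 129 CPM in libraries labelled hindbrain GLASTneg, 127, 155 and 103 in labelled hindbrain GLASTpos, 157, 89.8 and 129 in forebrain GLASTneg, 73.6, 93.8 and 76.6 in labelled forebrain GLASTpos and 31.0, 65 and 53.7 in labelled spinal cord GLASTneg. The last group lay below the rest. An overall test across the 5 populations passed for 2 of the 10, Stat3 (0.00319) and Nfkbia (0.0358), against 12% of 14957 genes. Nfkbia was at 47.1, 173 and 142 CPM in the libraries labelled spinal cord GLASTneg and at 179 to 356 CPM in the other 12, and its call was lost in 7 of 15 fits that left out a library. Both tests ask whether any of the 5 groups differ and do not depend on their names. Bcl3 had no count in 3 of the 5 populations, and Socs3 did not exceed 8.63 CPM in any library; in the library with that value, 3 counts corresponded to 3.24 CPM.

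Cultured astrocytes had higher levels of 8 of the 10 genes than the mean of the 5 isolated populations, against 43.9% of 17126 genes that passed in either direction and a median difference of 0.41 over all genes. Nfkb2 was at 23.9, 18.4 and 16.4 CPM in culture and at 0 to 19.1 CPM in the isolated libraries, a difference of 2.75 ± 0.48 (4.26e-06). Cebpb, at 26.3, 18.5 and 22.8 CPM, against 0 to 18.5 CPM, differed by 2.77 ± 0.40 (9.83e-08). Stat3 was at 210, 237 and 245 CPM, above all 15 isolated libraries, and higher by 1.21 ± 0.19 (1.27e-06). Socs3 (2.38 ± 0.55, 0.00027), Cebpd (2.18 ± 0.41, 2.56e-05), Relb (1.20 ± 0.48, 0.034), Rela (0.85 ± 0.22, 0.00199) and Bcl3 (adjusted p = 0.00533, at 3.98, 3.43 and 4.80 CPM in culture) also passed. Nfkb1 (-0.68 ± 0.38, 0.147) and Nfkbia (-0.23 ± 0.23, 0.464) did not pass.

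The culture result rests on groups that differ in strain, age, brain region and purity, which cannot be told apart from culture. Cultured libraries had a myeloid marker sum of 440 to 3480 CPM against 17.5 to 256 CPM in the isolated ones and an astrocyte marker sum of 5898 to 6397 against 26654 to 36078 CPM, and the part of either was not tested. Cebpd was 14.3, 86.2 and 24.8 CPM in culture, and without replicate 2 its difference was 1.01 (0.0765). The Relb call was lost in 6 of 18 fits that left out a library (0.0516 to 0.264), and with DESeq2 the calls of Relb, Bcl3 and Socs3 were lost (0.167, 0.196 and 0.0534). With DESeq2's scaling the median difference over all genes was 0.29, a shift of -0.12.

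**Figure D5:**
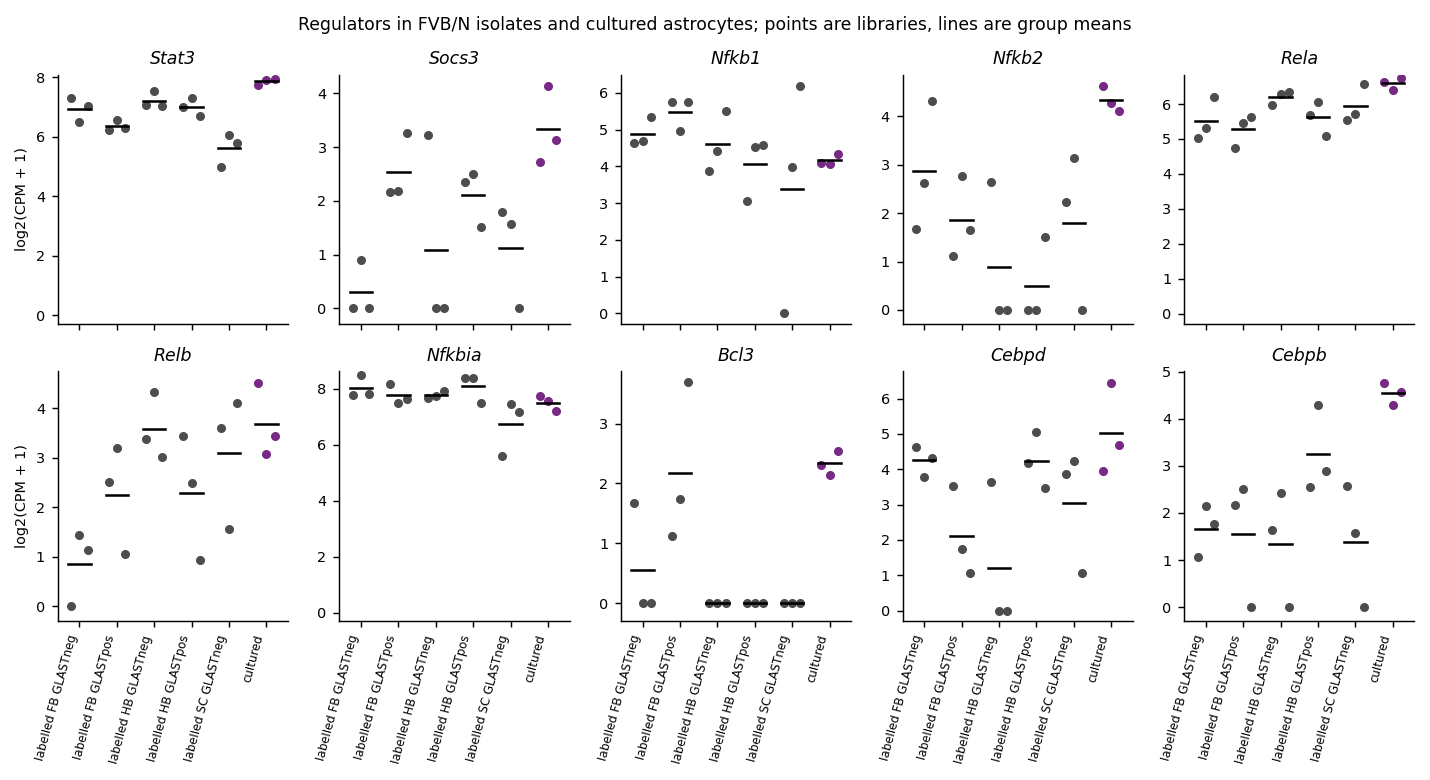
Level of each of the 10 genes, as log2(CPM + 1), in each FVB/N library by labelled population and in each cultured library, with group means. Cultured libraries lie above all isolated ones for Stat3, at 210 to 245 CPM, and the libraries labelled spinal cord GLASTneg are lowest, at 31.0 to 65 CPM. A supplementary table of the study names the latter hindbrain GLASTpos.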

How the data were processed

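RNA of sorted or cultured mouse astrocytes was made into 3′ libraries (QuantSeq, RIN above a set minimum) from up to 2 mice each. The authors deposited raw counts per gene, made per the labels and methods with HISAT 0.1.5 on GRCm38 and HTSeq 0.6.1p1 in union mode; the strand setting is not given in the sources used here. Libraries were grouped by the labels, of which A and AG were read as GLASTneg and GLASTpos after the study's methods; trypsin digestion at 37 °C preceded the sort.

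Genes were kept from a summed count of 10 upwards and fitted with edgeR 4.0.16 in R 4.3.3 (TMM scaling, quasi-likelihood F-test, two-sided, Benjamini-Hochberg over all genes, adjusted p under 0.05), with 1 fit of all 66 EAE libraries and separate fits of the 15 FVB/N and 18 FVB/N and cultured libraries. CPM are TMM-scaled. The scripts were tested on simulated data. Alternatives were DESeq2 1.42.0 (also its size factors), limma 3.58.1 (voom with the title number as a random block), other filters, a fold threshold, fits of 1 population, a replicate block, a term for column numbers above 56 and each library left out; edgeR's earlier dispersion estimate was chosen after seeing the data.

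The 10 genes, the pathway lists and the marker lists were chosen with earlier results of these data known. All 10 genes are named. Pathway genes were named where they passed at score 4 in the spinal cord with a mean of at least 5 CPM over the 66 EAE libraries, up to 3 per direction and list, and the 3 most similar genes per regulator came from genes with at least 5 CPM. Other marker lists (neuron, endothelial, ependymal and oligodendrocyte precursor) were summed and are given with the limits. Replicate numbers did not pair libraries: the mean correlation of same-numbered libraries across groups was -0.0044, against 0.00097 for others. No library was a copy of another. A gene of the pathway lists is not reported here.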

Additional observations from a re-analysis of the deposited data

Results flagged for a closer look

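Each of the 10 genes was checked within each EAE group by Dixon's test at its 95% limit, and 14 of 119 such sets had a library set apart. Chance flags about 1 in 20 sets of normally distributed values, but the CPM were tested untransformed. A set with 1 library above 0 and the rest at 0 is always flagged, as for Bcl3 in GLASTpos control and chronic libraries and Cebpb in GLASTpos controls. The number flagged can therefore not be set against that rate. In 6 of the 14 the library held fewer than 20 counts of the gene. Nfkbia was at 1662 CPM in spinal cord score 4 replicate 2, the library with the highest myeloid, neutrophil and immediate early sums. Spinal cord chronic replicate 4 was apart for Rela (124 CPM) and Cebpb (5.00 CPM), and replicate 1 for Cebpd (246 CPM). Hindbrain GLASTneg chronic replicate 3 was apart for Bcl3 (31.9 CPM) and Cebpb (6.46 CPM), and score 4 replicate 2 for Relb (12.8 CPM). In hindbrain GLASTpos cells, chronic replicate 4 stood out for Socs3 (17.2 CPM), chronic replicate 1 for a low Rela (48.2 CPM) and for Bcl3 (4.59 CPM), control replicate 1 for Bcl3 (4.09 CPM), control replicate 4 for Cebpd (31.2 CPM) and Cebpb (2.79 CPM), and score 4 replicate 6 for Cebpb (5.24 CPM).

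The response to EAE differed between spinal cord and hindbrain GLASTneg cells by the interaction test for Rela at score 4 (1.04 on the log2 scale) and, in the chronic stage, for Nfkb1 (-2.06) and Nfkbia (-1.34).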

How the results depend on the processing

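Of 58 calls of single genes, 32 were kept in all alternatives and in all fits that left out a library, and 0 changed direction. Of 222 recomputed counts of passing genes, 197 stayed within 1.5 times the reported count; the cause of the others was not tested. DESeq2 gave 1 for any FVB/N difference, 5 for culture, 1 for hindbrain GLASTneg in the chronic stage and 1 for its step from score 4, and 2 for the spinal cord step from score 4 to chronic. That spinal cord step was also 2 with limma-voom, with the earlier edgeR estimate and with that population alone, and 0 with the column number term. The term also gave 0 for GLASTpos against GLASTneg controls and for the interaction at score 4. GLASTpos against GLASTneg controls was 0 with limma-voom and 1 with the fold threshold, and hindbrain GLASTneg at score 1 was 2 with limma-voom. Hindbrain GLASTneg counts at score 4, in the chronic stage and between both were 5, 2 and 2 in a fit of that population alone and 5, 2 and 2 without a filter, and without a filter the spinal cord step from score 1 to score 4 was 3. A stricter filter (filterByExpr) gave 5 for culture, 1 for the hindbrain GLASTneg step and 2 for the interaction at score 4. With the replicate block the hindbrain GLASTneg step was 1 (Stat3, -0.85, adjusted p = 0.0450 in edgeR); the block also lost Rela in the chronic spinal cord and gained Nfkbia at score 1 in hindbrain GLASTneg cells and Cebpd between score 4 and chronic in GLASTpos cells. The replicate numbers do not pair the libraries. The first number of the titles, which populations of a stage can share, may name a mouse; libraries that shared it had a mean correlation of 0.042, against -0.0008 for others, and as a random block it had a correlation of 0.0384.

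Leaving out each library gave 1 to 3 for any FVB/N difference, 0 to 2 for GLASTpos against GLASTneg controls and 2 to 2 for spinal cord against GLASTpos controls, and 7 to 9 for culture. For score 1, score 4 and chronic the ranges were 5 to 7, 7 to 7 and 5 to 7 in the spinal cord, 3 to 5, 3 to 3 and 0 to 0 in hindbrain GLASTneg cells, and 3 to 5, 2 to 4 and 0 to 0 in GLASTpos cells. The spinal cord steps gave 0 to 1 and 2 to 4, the hindbrain ones 0 to 1 and 2 to 3, and the spinal cord interactions 0 to 0, 1 to 2 and 1 to 3. With the population names of the supplementary table, 19 of 50 FVB/N group means moved by more than 1 SD and 31 did not. Depth limits Nfkb2, Cebpb, Bcl3 and Socs3, which had libraries with no count in 13, 10, 9 and 6 of 18 groups. Other markers also differed in the spinal cord: median sums from control to score 4 were 219 and 553 CPM for neuron, 6.94 and 34.3 for endothelial, 272 and 499 for oligodendrocyte precursor and 27.3 and 15.7 for ependymal genes.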
